A study of Homo sapiens with 6 samples.

Results

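The 40 genes described here encode the BCL2 family, caspases, death receptors and their partners, the core machinery of apoptosis. They were chosen by name from the 61552 genes of the deposited table. Each listed symbol was matched to the symbol column, and all 40 were found there once. The rule itself uses no measured value, but the list was drawn up with earlier results of these data known. The cells were SKOV3, a cell line long in culture that derives from a human ovarian carcinoma, and their poly(A) RNA was sequenced. Treated cells received 1 µM fenbendazole, a worm medicine of the benzimidazole class whose target is tubulin, and control cells its solvent DMSO, both over 48 h. Each group held 3 libraries, named here by the numbers in their titles: fenbendazole 7, 8 and 9, and DMSO 10, 11 and 12. No genetic change is named for either group, and 1 line stands for 1 tumour. Whether each library is a culture of its own is not stated, and p-values here reflect no more than library-to-library spread, possibly technical.

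Apoptosis is started along a mitochondrial and a receptor pathway. In the mitochondrial pathway BH3-only proteins bind anti-apoptotic BCL2 relatives and free or activate the effectors BAX and BAK, which permeabilise the outer mitochondrial membrane; released cytochrome c assembles APAF1 into the apoptosome, which activates caspase-9. In the receptor pathway ligands such as FAS ligand and TRAIL gather FADD and caspase-8 or caspase-10 at death receptors, and inhibitor of apoptosis proteins (IAPs) restrain caspases or ubiquitinate receptor complexes. Drugs that disturb microtubules are known to bear on this machinery, since MCL1 and BCL2 relatives set how long cells survive a delayed mitosis. Only transcripts were measured here, and much of the regulation of these proteins is by cleavage, phosphorylation and degradation.

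Total counts ran from 14127578 to 17452459 in fenbendazole libraries and from 13170775 to 22128930 in DMSO libraries. Of 13 markers listed for ovarian carcinoma lines in general, 11 averaged at least 1 FPKM (fragments scaled to transcript length and library size, as deposited). ERBB2 was at the highest level, and WT1 and MUC16 were below 1 FPKM. The summed level of these 13 was 1492 to 1665 FPKM with fenbendazole and 2422 to 4544 FPKM in DMSO. ERBB2 made up most of this sum, at 836 to 934 FPKM with fenbendazole and 1618 to 3408 FPKM in DMSO, while KRT7 lay the other way, at 131 to 141 FPKM with fenbendazole and 45.3 to 122 FPKM in DMSO. Summed over a list, leukocyte markers gave 7.37 to 8.09 FPKM with fenbendazole and 6.05 to 10.1 FPKM in DMSO, nearly all of it CD68, and PTPRC and CD3E were at or near 0. The corresponding sums of fibroblast markers were 10.8 to 11.5 and 9.88 to 15.4 FPKM, and those of endothelial markers 1.82 to 2.12 and 1.42 to 2.50 FPKM. The part of these marker levels in the results was not tested. DMSO 11 differed from the other 5 libraries: it was the highest of the 6 in 17 and the lowest in 10 of the 39 members that passed the filter on low counts, beside 67.1% of all tested genes in which it was at either end. Its difference from the mean of DMSO 10 and DMSO 12 tracked the GC content of the transcript, with a Spearman correlation of 0.80 across 16975 tested genes and 0.96 across these 39 members (genes of the same libraries, hence a description with no test). All 12 members with a GC content of at least 55% were higher in DMSO 11 than in the other DMSO libraries, by 0.43 to 3.28 on the log2 scale. Of 11 members under 45%, 10 were lower there, and the lowest difference was -1.01. The calls are therefore given with and without DMSO 11.

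**Figure D1:**
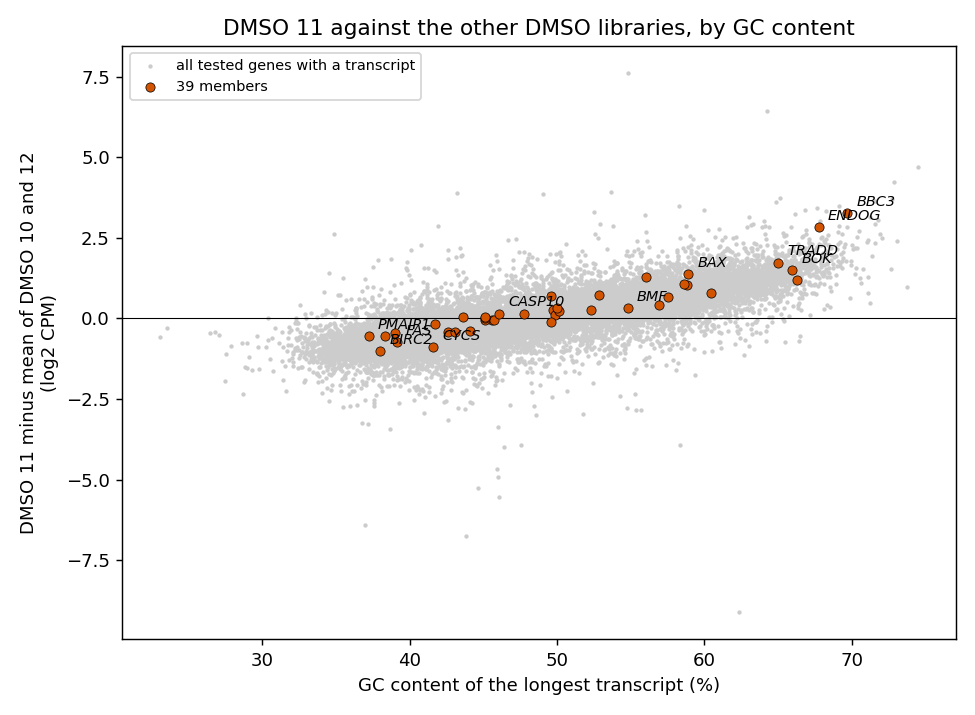
Difference of DMSO 11 from the mean of DMSO 10 and DMSO 12 (y axis, log2 CPM) against the GC content of the longest transcript (x axis, percent). Grey points are tested genes with a transcript in GENCODE v29 and orange points the 39 tested members; BBC3 and ENDOG, the most GC-rich members, lie highest and BIRC2 lowest.

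Few of these genes changed beyond the spread of all 6 libraries. CASP10, which encodes an initiator caspase of the death receptors, and BMF, a BH3-only gene, fell, and CYCS, which encodes cytochrome c, rose. That made 1 member higher (2.56%) and 2 lower (5.13%) of 39 tested at a Benjamini-Hochberg adjusted p of 0.05 in edgeR's quasi-likelihood test. Over all 17363 genes tested, 4.03% were called, 3.11% higher and 0.921% lower, or 540 and 160 genes; with upper-quartile scaling the split was 455 and 231, and 0 members were higher and 2 lower. The median log2 fold change of the 39 members was -0.03, against -0.06 for all genes tested. In 8 members all fenbendazole libraries lay above all DMSO libraries and in 6 they all lay below, which is 20.5% and 15.4% of the members, beside 17% and 15.5% of all genes tested. These shares of groups that do not overlap are close to the background. Without DMSO 11, 8 members were higher (20.5%) and 5 lower (12.8%) of 39, among them the 3 above, where 13.1% of all genes tested were called higher and 9.23% lower. Since the control that differs most is left out there, these p-values may understate the spread between controls. DESeq2 on all libraries called 5 members higher and 4 lower, beside 6.11% and 4.28% of all genes with an adjusted p, and offsets for GC content and length called 7 higher and 5 lower, beside 12.5% and 8.22%. The calls of DESeq2, 9 in all, were also made without DMSO 11 and with the offsets: BCL2, BCL2L1, APAF1, CYCS and FAS higher, and BCL2L11, BMF, CASP10 and TNFRSF1A lower.

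**Figure D2:**
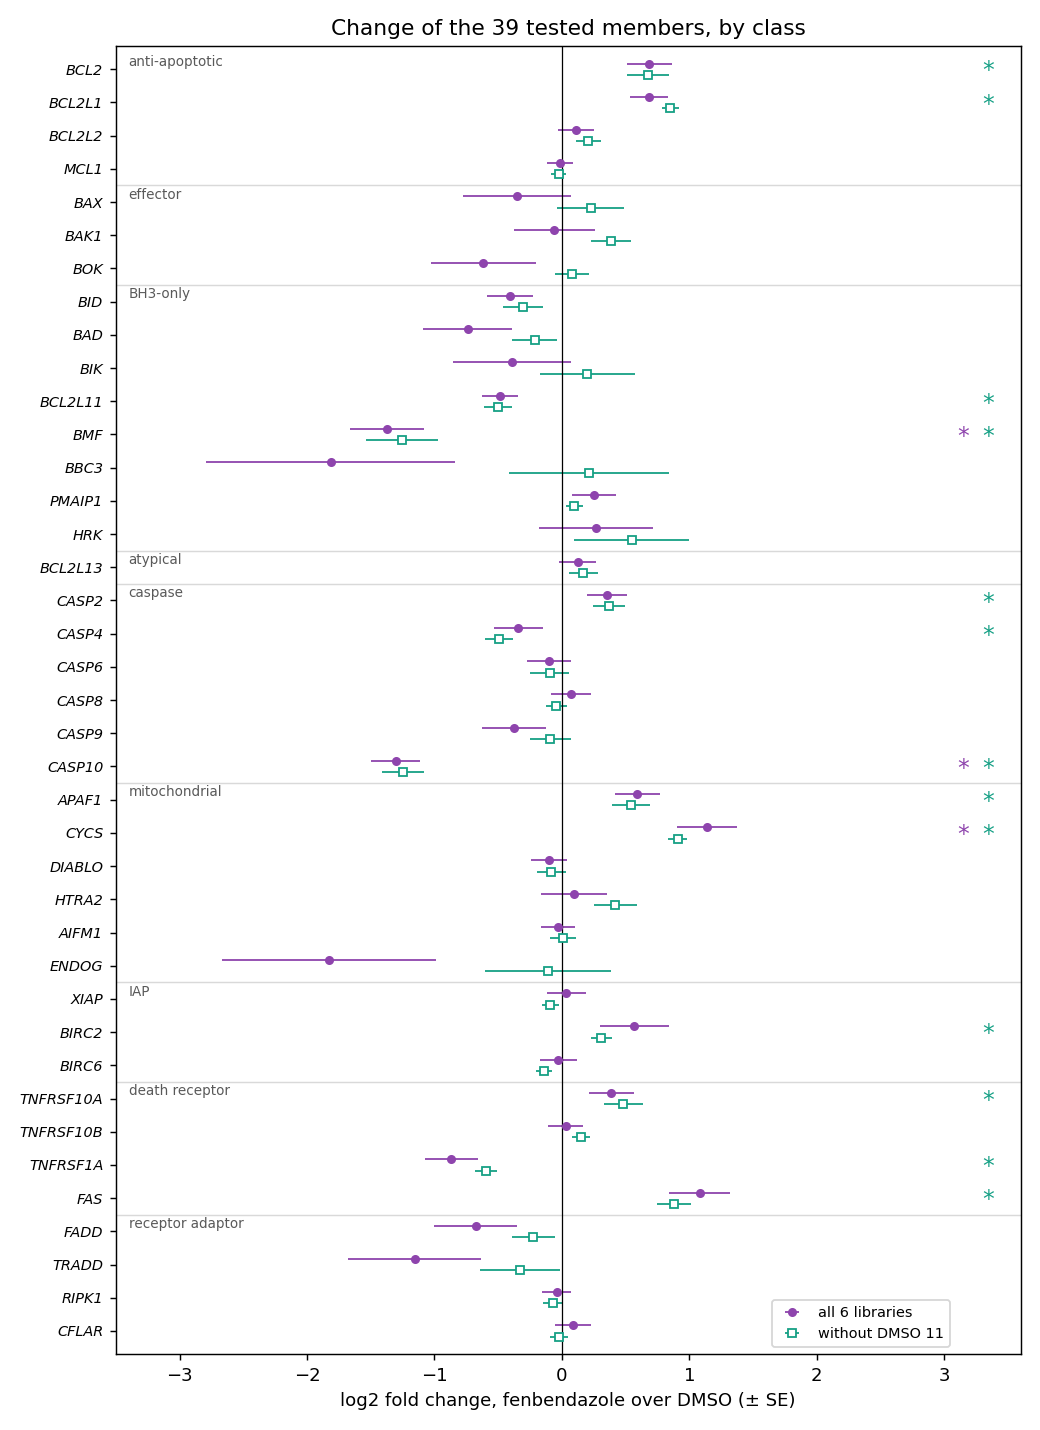
Log2 fold change of fenbendazole over DMSO with its standard error for the 39 tested members, by class, in all 6 libraries (filled circles) and without DMSO 11 (open squares). Stars mark an adjusted p under 0.05: purple for 3 members with all libraries, green for 13 without DMSO 11. The bars of BBC3, ENDOG and BOK are long with all libraries and shorter without DMSO 11.

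Among the anti-apoptotic genes, which bind and restrain effectors and BH3-only proteins, MCL1 and BCL2L1 were at the highest level per length. MCL1 averaged 66.6 ± 1.15 FPKM with fenbendazole and 70.6 ± 1.54 FPKM in DMSO (SD, n = 3 each), and BCL2L1, which encodes BCL-XL, 68.6 ± 2.56 FPKM with fenbendazole and 45.3 ± 8.79 FPKM in DMSO. BCL2L2, which encodes BCL-W, followed with means of 12.8 and 13.6 FPKM with fenbendazole and in DMSO, then BCL2 with 2.21 and 1.46 FPKM in the same order. BCL2A1 had 1 count in fenbendazole 9 and 0 in every other library, under the 3 counts taken as a floor, and was not tested. Of 4 tested genes 0 passed the threshold in all libraries (adjusted p from 0.053 to 0.949), and BCL2 and BCL2L1 were higher without DMSO 11.

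BCL2L1 stood at 208, 221 and 208 CPM in fenbendazole 7, 8 and 9, against 120.1, 159 and 116 CPM in DMSO 10, 11 and 12 (counts scaled to a common library size, TMM). Every fenbendazole library was above every DMSO library, and DMSO 11 was the highest control. The log2 fold change was 0.69 ± 0.151 (SE; adjusted p = 0.0530 in edgeR's test), and 0.85 ± 0.0673 without DMSO 11 (adjusted p = 7.52e-07). BCL2, the founding member of the family, had 18.4, 15.5 and 17.9 CPM in fenbendazole 7, 8 and 9, against 11.7, 10.5 and 9.97 CPM in DMSO 10, 11 and 12. Its groups did not overlap either, and here DMSO 11 lay within the controls. BCL2 differed by 0.69 ± 0.178 (adjusted p = 0.0819 in edgeR's test) and by 0.68 ± 0.163 without DMSO 11 (adjusted p = 0.00868). MCL1, whose short-lived product is needed for survival in mitosis, had 344, 338 and 349 CPM in fenbendazole 7, 8 and 9, against 359.9, 338 and 343 CPM in DMSO 10, 11 and 12. Its groups overlapped, and the 95% interval of its log2 fold change was -0.26 to 0.23. The ratio of BCL2L1 to MCL1 in FPKM was 1.01, 1.09 and 0.986 in fenbendazole 7, 8 and 9, against 0.566, 0.776 and 0.580 in DMSO 10, 11 and 12. BCL2L1 was thus at about the level of MCL1 in treated cells and below it in each control. That of BCL2L1 to BCL2 was 31.2 ± 3.74 with fenbendazole and 31.0 ± 6.34 in DMSO (SD, n = 3 each). BCL2L2 had a 95% interval of -0.22 to 0.44. Its exons are partly those of the read-through transcript BCL2L2-PABPN1, which averaged 21.1 CPM with fenbendazole and 7.80 CPM in DMSO, so reads may be split between them. BCL2L1 overlaps ABALON on the opposite strand, at 7.23 CPM with fenbendazole and 4.08 CPM in DMSO.

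The effectors, which form the pores of the outer mitochondrial membrane, gave 0 calls among 3 with all libraries and 0 without DMSO 11. BOK, a relative of BAX and BAK, had 18.3, 19.8 and 19.3 CPM in fenbendazole 7, 8 and 9, against 19.2, 51.4 and 17.1 CPM in DMSO 10, 11 and 12. BAX had 13.7, 15.8 and 12.96 CPM in fenbendazole 7, 8 and 9, against 16.2, 29.8 and 7.96 CPM in DMSO 10, 11 and 12. In both genes DMSO 11 was the highest of the 6 libraries, and the treated libraries overlapped the range of the other controls. BOK differed by -0.62 ± 0.410 (adjusted p = 0.415, edgeR) with all libraries and by 0.082 ± 0.135 without DMSO 11, and BAX by -0.35 ± 0.425 (adjusted p = 0.660) and 0.23 ± 0.262. BAK1, the partner of BAX, was at -0.059 with all libraries and 0.38 without DMSO 11. All 3 estimates were thus below 0 with DMSO 11 and above 0 without it. Their GC content was 58.8% to 66.0%. With offsets for GC content and length on all 6 libraries the estimates were 0.050 for BAX, 0.30 for BAK1 and 0.16 for BOK, also above 0 and not past the threshold (adjusted p = 0.917, 0.216 and 0.408 in edgeR's test).

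Of 8 BH3-only genes, whose products sense damage and bind BCL2 relatives, 1 was lower and 0 were higher with all libraries, and 2 were lower and 0 higher without DMSO 11. BMF, whose product is held at actin and myosin V complexes until it is released to bind BCL2, had 2.78, 4.47 and 2.65 CPM in fenbendazole 7, 8 and 9, against 6.97, 9.83 and 8.85 CPM in DMSO 10, 11 and 12. Even the highest treated library was below the lowest control. The change of -1.38 ± 0.290 on the log2 scale (SE) passed edgeR's test at an adjusted p of 0.0457, and the estimate was -1.25 ± 0.279 without DMSO 11 (adjusted p = 0.00540). The call was lost without each of fenbendazole 7, 8 and 9 (adjusted p = 0.229, 0.0797 and 0.220), without DMSO 10 (0.0870) and without DMSO 12 (0.0884).

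BMF (ENSG00000104081, chromosome 15, 40087890 to 40108892, minus strand, GRCh38) is a gene of low level, at 0.757 ± 0.327 FPKM with fenbendazole and 2.05 ± 0.258 FPKM in DMSO (SD, n = 3 each). The window around its start, from 250 bases before to 50 after the first of 2 starts that RefSeq lists (GRCh38.p14, chr15:40108830-40109129, minus strand), is shown because BMF was the BH3-only gene past the threshold, and CYCS follows as the member called higher with all libraries. BCL2L1 and FAS follow as members called higher by DESeq2, by edgeR without DMSO 11 and with offsets for GC content and length, but not by the edgeR test on all libraries used above (adjusted p = 0.0530 and 0.0536). BCL2 and APAF1 met the same description (adjusted p = 0.0819 and 0.111 in edgeR's test on all libraries) and are not shown. No window was listed for CASP10. Capitals mark the CCAAT box, the GC box with the letters GGGCGG, the TATA box with the letters TATAAA, the E-box with the letters CACGTG, the AP-1 letters TGANTCA, the E2F letters TTTNGCGC and the NRF1 motif, searched on both strands, with no overlap between matches in these windows.
BMF: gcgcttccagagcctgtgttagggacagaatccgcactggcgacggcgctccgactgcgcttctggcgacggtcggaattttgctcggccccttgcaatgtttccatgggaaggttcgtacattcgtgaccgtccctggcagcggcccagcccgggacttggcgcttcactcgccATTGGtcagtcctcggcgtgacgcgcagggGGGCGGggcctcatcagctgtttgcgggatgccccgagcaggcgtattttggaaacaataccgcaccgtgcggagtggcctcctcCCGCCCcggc
CYCS: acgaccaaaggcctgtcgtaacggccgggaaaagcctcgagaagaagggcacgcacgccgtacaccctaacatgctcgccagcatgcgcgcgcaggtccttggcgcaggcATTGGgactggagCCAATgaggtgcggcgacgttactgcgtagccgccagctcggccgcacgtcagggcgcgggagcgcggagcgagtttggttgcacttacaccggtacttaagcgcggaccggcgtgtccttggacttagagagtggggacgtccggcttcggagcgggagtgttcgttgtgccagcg
BCL2L1: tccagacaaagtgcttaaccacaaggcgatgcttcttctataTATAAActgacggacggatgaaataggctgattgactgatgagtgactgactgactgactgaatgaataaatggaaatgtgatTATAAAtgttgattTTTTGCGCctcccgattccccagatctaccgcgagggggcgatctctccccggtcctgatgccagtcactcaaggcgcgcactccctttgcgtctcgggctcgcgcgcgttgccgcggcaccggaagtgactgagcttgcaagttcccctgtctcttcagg
FAS: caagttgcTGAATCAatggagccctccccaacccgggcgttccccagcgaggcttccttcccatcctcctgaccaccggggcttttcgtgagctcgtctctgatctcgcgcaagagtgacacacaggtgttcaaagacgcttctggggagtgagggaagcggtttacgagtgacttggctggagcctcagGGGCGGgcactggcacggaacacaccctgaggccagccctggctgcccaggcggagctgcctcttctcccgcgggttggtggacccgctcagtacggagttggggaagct
The BMF window held a CCAAT box on the opposite strand 75 bases before the start and GC boxes at 45 bases before and 41 after it. CYCS (chr7:25125211-25125510, minus strand) held CCAAT boxes at 140 and 127 bases before its start, in opposite orientations. BCL2L1 (chr20:31723914-31724213, minus strand, the first of 2 starts listed) held TATAAA at 208 and 125 bases and the E2F letters at 111 bases before its start. FAS (chr10:88990548-88990847, plus strand, the first of 3) held a GC box at 60 and the AP-1 letters at 242 bases before its start. No motif was shared by all 4 windows. Of 35116 windows of this length, 34.6% hold CCAAT, 44.95% the GC box, 11.5% TATAAA, 7.26% the E-box, 7.71% the AP-1 letters, 5.78% the NRF1 motif and 1.79% the E2F letters. Windows were found for 33 of the 40 genes, and a match is a description of letters only.

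BCL2L11, which encodes BIM, a broad activator of BAX and BAK, had 35.4, 32.1 and 32.3 CPM in fenbendazole 7, 8 and 9, against 50.3, 45.2 and 44.3 CPM in DMSO 10, 11 and 12. It was lower in all treated libraries, and DMSO 11 lay between the other controls. The log2 fold change was -0.49 ± 0.139 (adjusted p = 0.104, edgeR), and -0.50 ± 0.108 without DMSO 11 (adjusted p = 0.00440). Its span overlaps the opposite-strand noncoding gene MIR4435-2HG, which averaged 42.5 CPM with fenbendazole and 23.7 CPM in DMSO, the other direction; strand was not stated, so their reads cannot be told apart with certainty. PMAIP1, which encodes NOXA, a ligand of MCL1, had the highest level per length of all 40 genes, at 119 ± 1.20 FPKM with fenbendazole and 107 ± 18.01 FPKM in DMSO (SD, n = 3 each). It was not called, and the 95% interval of its log2 fold change was -0.15 to 0.65. BID, the link from caspase-8 to mitochondria, and BAD, a BCL-XL ligand, were lower in all treated libraries without passing the threshold, at -0.41 ± 0.181 and -0.74 ± 0.348. They stood at -0.30 ± 0.155 and -0.21 ± 0.177 without DMSO 11. With offsets for GC content and length on all libraries, BID was at -0.38 and BAD at 0.0089. Neither passed the threshold there (adjusted p = 0.0754 and 0.977 in edgeR's test). BBC3, which encodes PUMA, had 8.03 CPM in DMSO 11 and 0.390 to 1.26 CPM in the other 5 libraries, so that its estimate of -1.82 became 0.21 without DMSO 11. BIK and HRK were at -0.39 and 0.27, with levels under 6 CPM in each library and 95% intervals of -1.47 to 0.68 and -0.77 to 1.31. BCL2L13, an atypical relative of the outer mitochondrial membrane that takes part in mitophagy, had 64.7, 76.3 and 61.4 CPM in fenbendazole 7, 8 and 9, against 65.8, 65.3 and 54.5 CPM in DMSO 10, 11 and 12, groups that overlapped and a 95% interval of -0.22 to 0.47.

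**Figure D3:**
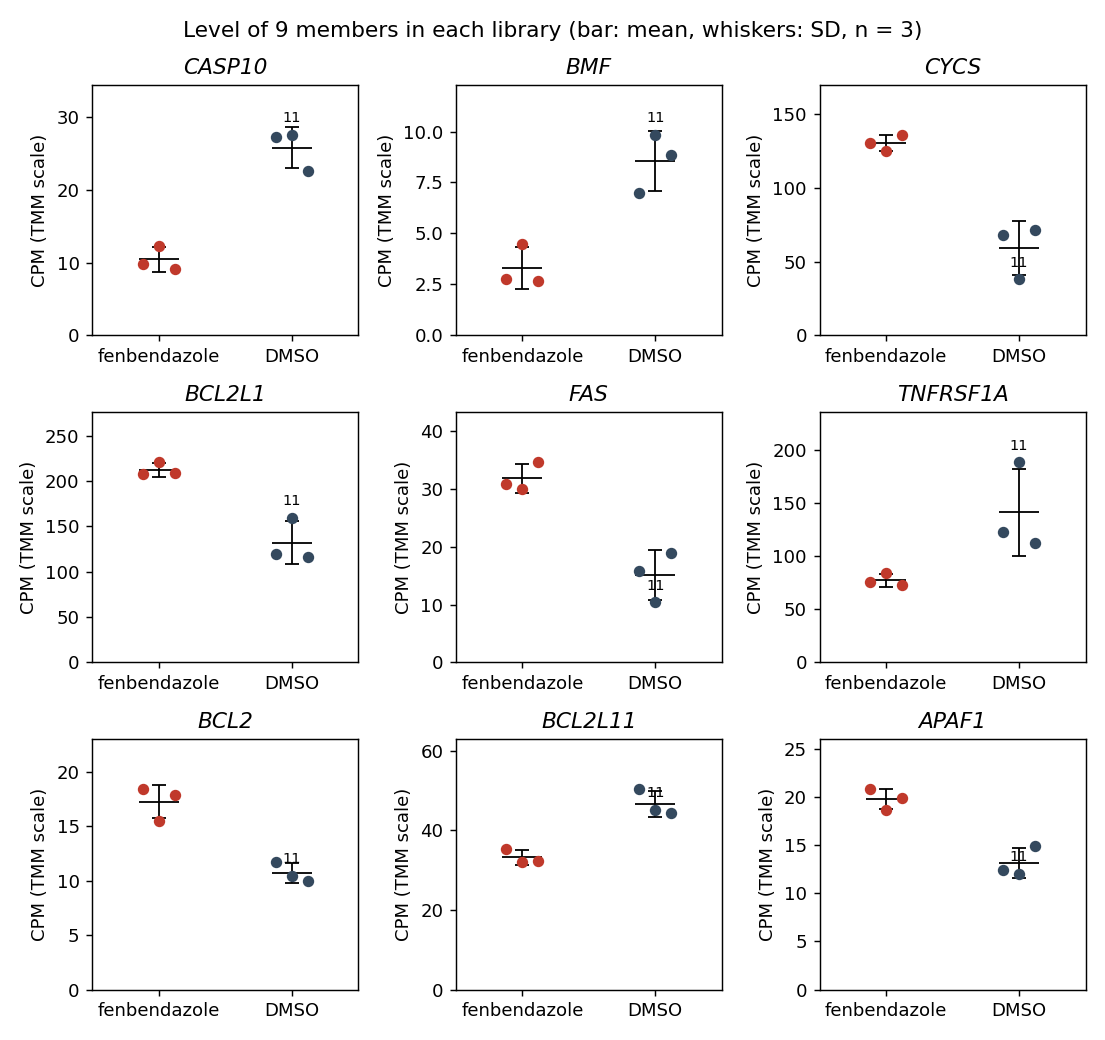
Level of 9 members in each library, in CPM on the TMM scale, with fenbendazole on the left and DMSO on the right of each panel; the bar is the mean, whiskers are the SD of 3 libraries and DMSO 11 is marked. The 9 genes are those that DESeq2 called, and in every panel the groups do not overlap. Because the genes were chosen by a call on these same libraries, this is no further result. Of all genes tested, 17% had all fenbendazole libraries above all DMSO libraries and 15.5% had them all below.

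CASP10 gave the smallest p of the 39 tested members. It had 9.86, 12.3 and 9.13 CPM in fenbendazole 7, 8 and 9, against 27.2, 27.6 and 22.5 CPM in DMSO 10, 11 and 12, and treated libraries were all below the controls with DMSO 11 beside DMSO 10. Means were 10.4 ± 1.68 CPM with fenbendazole and 25.8 ± 2.81 CPM in DMSO (SD, n = 3 each), a 2.47-fold lower level with fenbendazole. The log2 fold change of -1.31 ± 0.195 (SE) had an adjusted p of 0.0124 in edgeR's test and was -1.25 ± 0.165 without DMSO 11 (adjusted p = 0.000105). The call was lost without fenbendazole 7, 8 or 9 (adjusted p = 0.104, 0.0593 and 0.0963) and without DMSO 10 (0.0601). In bulk RNA, fewer cells that express a gene and less RNA per cell cannot be told apart.

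CASP10 (ENSG00000003400, chromosome 2, 201182872 to 201229428, plus strand, GRCh38) lies between CFLAR, 6184 bases upstream, and CASP8, 4014 bases downstream, all on the same strand. CFLAR encodes FLIP, a caspase-8 relative without protease activity that competes at FADD, and CASP8 the main initiator caspase of death receptors. CASP8 had 91.6, 92.4 and 104 CPM in fenbendazole 7, 8 and 9, against 95.3, 74.5 and 104 CPM in DMSO 10, 11 and 12, and its 95% interval was -0.29 to 0.44. CFLAR had 140.5, 138 and 149.8 CPM in fenbendazole 7, 8 and 9, against 140.2, 112 and 151 CPM in DMSO 10, 11 and 12, with an interval of -0.25 to 0.42. In both genes the groups overlapped, and DMSO 11 was the lowest library. Per length, CASP10 was at 0.0566, 0.0789 and 0.0619 of the CASP8 level in fenbendazole 7, 8 and 9, against 0.159, 0.184 and 0.117 in DMSO 10, 11 and 12 (ratio of FPKM). The ratio was lower in each treated library than in each control.

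The other caspases gave 0 calls with all libraries. CASP2, an initiator caspase of the PIDDosome that responds to extra centrosomes, had 31.8, 34.9 and 35.04 CPM in fenbendazole 7, 8 and 9, against 29.1, 26.9 and 23.4 CPM in DMSO 10, 11 and 12. It was higher in all treated libraries, by 0.36 ± 0.156 (adjusted p = 0.240, edgeR), and passed narrowly without DMSO 11 (0.37 ± 0.126, adjusted p = 0.0485). CASP4, an inflammatory caspase that binds bacterial lipopolysaccharide, had 40.3, 42.2 and 33.9 CPM in fenbendazole 7, 8 and 9, against 54.2, 37.96 and 55.6 CPM in DMSO 10, 11 and 12. DMSO 11 lay among the treated libraries and DMSO 10 and 12 above them. The estimate was -0.34 ± 0.191 (adjusted p = 0.337) with all libraries and -0.49 ± 0.111 without DMSO 11 (adjusted p = 0.00577). CASP6, an executioner, and CASP9, the apoptosome's initiator, had intervals of -0.51 to 0.30 and -0.97 to 0.21. Per length, CASP8 had the highest mean of the 6 caspase genes, at 32.98 and 33.1 FPKM with fenbendazole and in DMSO. CASP10 had the lowest, at 2.17 and 4.99 FPKM with fenbendazole and in DMSO.

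**Figure D4:**
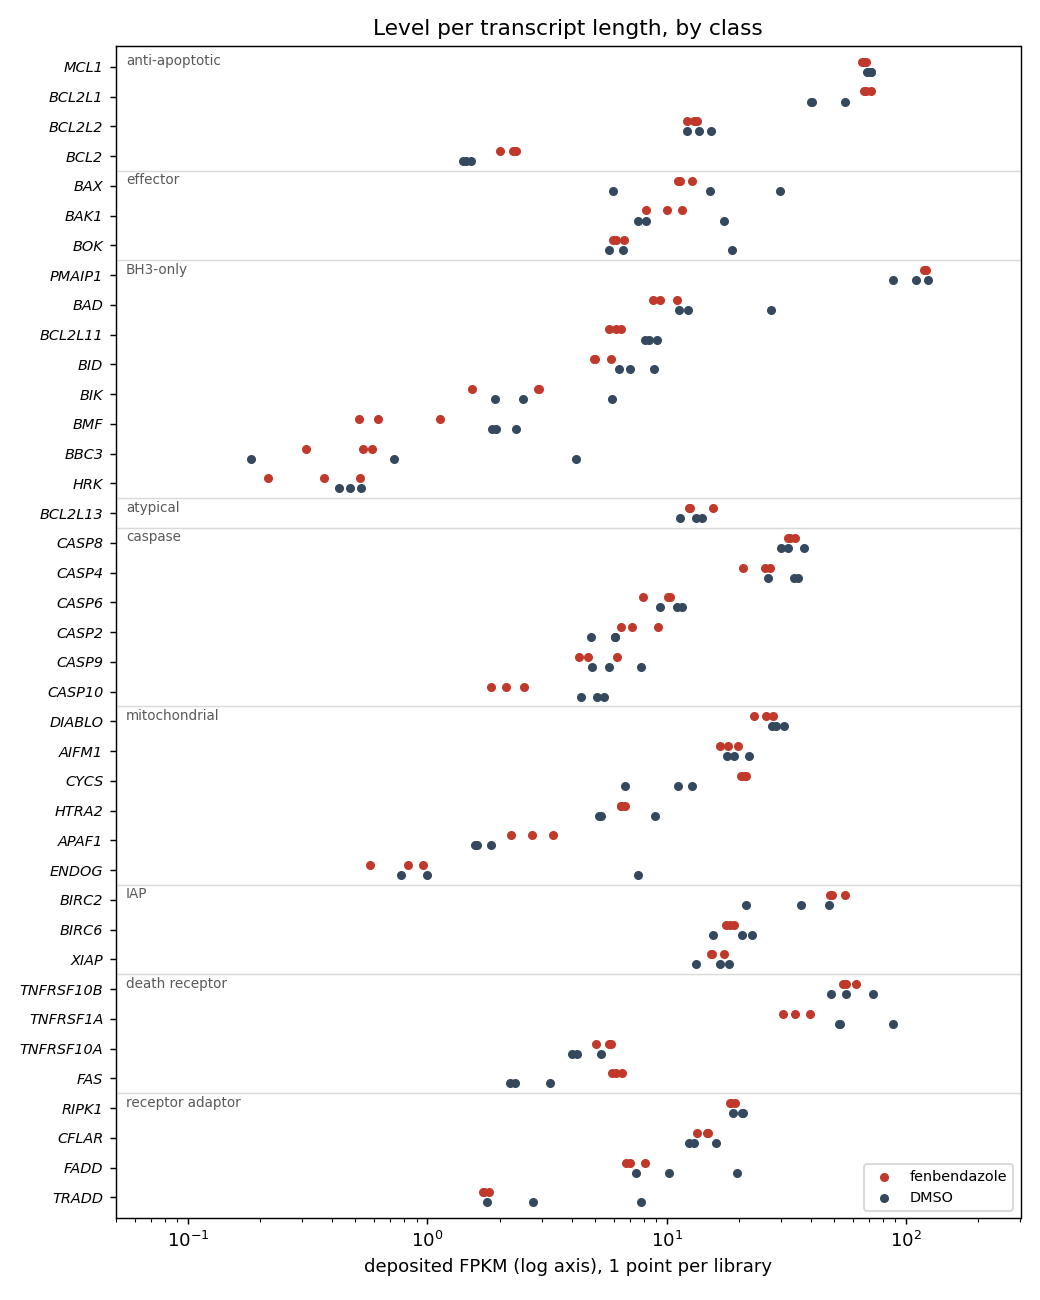
Deposited FPKM of 39 members (log axis), 1 point per library, by class; red points are fenbendazole and dark points DMSO. BCL2A1, at 0 in 5 libraries, is left out. PMAIP1, MCL1, TNFRSF10B and BCL2L1 have the highest means over the 6 libraries. The isolated dark points of BBC3, ENDOG and TRADD are DMSO 11.

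Of 6 genes for the apoptosome and for proteins released from mitochondria, 1 was higher and 0 lower with all libraries, and 2 were higher without DMSO 11. CYCS (ENSG00000172115, chromosome 7, 25118656 to 25125260, minus strand, GRCh38) had 131, 125 and 136 CPM in fenbendazole 7, 8 and 9, against 68.2, 38.00 and 71.8 CPM in DMSO 10, 11 and 12. All treated libraries were above all controls, and DMSO 11 was the lowest control. Means were 131 ± 5.38 CPM with fenbendazole and 59.3 ± 18.6 CPM in DMSO (SD, n = 3 each), a 2.20-fold higher level with fenbendazole. The log2 fold change was 1.14 ± 0.237 (SE; adjusted p = 0.0441 in edgeR's test) and 0.91 ± 0.0763 without DMSO 11 (adjusted p = 1.32e-06). The call was lost without fenbendazole 7, 8 or 9 (adjusted p = 0.179, 0.148 and 0.196), without DMSO 10 (0.103) and with upper-quartile scaling (0.0596), in each case with the same direction. The table lists 41 CYCS pseudogenes with 114 counts in all libraries together, against 9074 for CYCS, so reads may be shared to an extent the counts cannot show.

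APAF1, the scaffold of the apoptosome, had 20.8, 18.7 and 19.9 CPM in fenbendazole 7, 8 and 9, against 12.4, 12.02 and 14.95 CPM in DMSO 10, 11 and 12. Groups did not overlap, and the difference was 0.59 ± 0.175 (adjusted p = 0.111, edgeR), or 0.54 ± 0.148 without DMSO 11 (adjusted p = 0.0179). The opposite-strand gene ANKS1B, which overlaps APAF1, averaged 2.24 CPM with fenbendazole and 2.79 CPM in DMSO. DIABLO and HTRA2, which encode IAP antagonists, had intervals of -0.43 to 0.23 and -0.51 to 0.70, and AIFM1, an oxidoreductase of the intermembrane space, -0.34 to 0.28. HTRA2 overlaps AUP1 on the opposite strand, and it passed the threshold with offsets for GC content and length (0.49, adjusted p = 0.0378). ENDOG, a mitochondrial nuclease, had 9.21 CPM in DMSO 11 and 0.794 to 1.34 CPM in the other 5 libraries. Its estimate was -1.83 with all libraries and -0.11 without DMSO 11.

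The IAP genes gave 0 calls among 3 with all libraries. BIRC2, which encodes the ubiquitin ligase cIAP1 of TNF receptor complexes, had 221, 205 and 211 CPM in fenbendazole 7, 8 and 9, against 154, 84.95 and 189.8 CPM in DMSO 10, 11 and 12. Treated libraries were all above the controls, of which DMSO 11 was far the lowest and DMSO 12 close to the treated range. The difference was 0.57 ± 0.268 (adjusted p = 0.267, edgeR) and 0.31 ± 0.0855 without DMSO 11 (adjusted p = 0.0202). XIAP, the direct caspase inhibitor, had 149, 148 and 157 CPM in fenbendazole 7, 8 and 9, against 159, 118 and 166 CPM in DMSO 10, 11 and 12. Its groups overlapped, with an interval of -0.32 to 0.39, and BIRC6, a large ubiquitin-conjugating enzyme, had -0.36 to 0.31. BIRC2 had the highest level per length of the 3, at 50.99 and 35.1 FPKM with fenbendazole and in DMSO.

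The estimates of the death receptor genes lay on both sides of 0, and 0 of 4 passed the threshold with all libraries; without DMSO 11, 2 were higher and 1 lower. FAS (ENSG00000026103, chromosome 10, 88953813 to 89029605, plus strand, GRCh38), the receptor of FAS ligand, had 30.8, 29.9 and 34.6 CPM in fenbendazole 7, 8 and 9, against 15.8, 10.4 and 18.97 CPM in DMSO 10, 11 and 12. Each treated library was above each control. The log2 fold change was 1.08 ± 0.239 (SE; adjusted p = 0.0536 in edgeR's test), and 0.88 ± 0.133 without DMSO 11 (adjusted p = 0.000316). FAS passed the threshold in limma-voom (adjusted p = 0.0425), with no filter on low counts (0.0406), in DESeq2 (0.000736) and in edgeR without DMSO 12 (0.0434). Its span overlaps ACTA2 on the opposite strand, which averaged 1.09 CPM with fenbendazole and 1.40 CPM in DMSO, and STAMBPL1 on the same strand, which averaged 5.45 CPM with fenbendazole and 4.91 CPM in DMSO.

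TNFRSF1A, the main TNF receptor, had 75.9, 84.6 and 72.7 CPM in fenbendazole 7, 8 and 9, against 123, 189 and 113 CPM in DMSO 10, 11 and 12. It was lower in all treated libraries, and DMSO 11 was the highest control. The estimate was -0.87 ± 0.209 (adjusted p = 0.0680, edgeR) and -0.60 ± 0.0844 without DMSO 11 (adjusted p = 0.000188). TNFRSF10A and TNFRSF10B encode the TRAIL receptors DR4 and DR5. TNFRSF10A had 15.8, 18.3 and 18.6 CPM in fenbendazole 7, 8 and 9, against 13.04, 14.9 and 12.2 CPM in DMSO 10, 11 and 12. Its treated libraries were all above the controls, with a difference of 0.39 ± 0.178 (adjusted p = 0.256) or 0.48 ± 0.153 without DMSO 11 (adjusted p = 0.0376). Per length, TNFRSF10B averaged 57.3 and 59.1 FPKM with fenbendazole and in DMSO, TNFRSF1A 34.7 and 64.5 FPKM and FAS 6.19 and 2.59 FPKM. TNFRSF10B thus had the highest mean of the 4 receptors with fenbendazole and TNFRSF1A in DMSO. That order in DMSO did not hold in each library. TNFRSF1A had 53.0, 87.9 and 52.6 FPKM in DMSO 10, 11 and 12, and TNFRSF10B 48.7, 72.9 and 55.8 FPKM. In DMSO 12 TNFRSF10B was thus the higher. For TNFRSF10B the 95% interval of the log2 fold change was -0.28 to 0.34, and the groups overlapped.

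Adaptors and the inhibitor at these receptors gave 0 calls among 4 with all libraries and 0 without DMSO 11. TRADD, the adaptor of TNF receptor 1, had 3.24, 2.74 and 2.89 CPM in fenbendazole 7, 8 and 9, against 4.68, 12.2 and 2.75 CPM in DMSO 10, 11 and 12. FADD, the adaptor that recruits caspase-8, had 16.2, 13.9 and 13.7 CPM in fenbendazole 7, 8 and 9, against 19.9, 35.7 and 14.4 CPM in DMSO 10, 11 and 12. In both genes DMSO 11 was the highest library and DMSO 12 lay within the treated range. TRADD differed by -1.16 ± 0.520 (adjusted p = 0.252, edgeR) and FADD by -0.68 ± 0.327 (adjusted p = 0.278), against -0.33 ± 0.315 and -0.23 ± 0.170 without DMSO 11. RIPK1, the kinase that directs TNF signalling to survival or death, had an interval of -0.31 to 0.23.

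Of 46 other genes of the pathway, 36 were tested. BIRC5 was the 1 gene called higher, and 0 were called lower. It encodes survivin, a member of the IAP family and a subunit of the chromosomal passenger complex in mitosis. Over all genes tested, 3.11% were called higher and 0.921% lower. BIRC5 had 155, 164 and 164 CPM in fenbendazole 7, 8 and 9, against 29.5, 26.1 and 19.4 CPM in DMSO 10, 11 and 12. The treated libraries were all above the controls, with a log2 fold change of 2.68 ± 0.179 (SE; adjusted p = 0.000807 in edgeR's test). The median log2 fold change over these 36 genes was -0.0079. Of the 36, 11 were higher and 5 lower in the fit without DMSO 11, beside 13.1% and 9.23% of all genes tested there. Both shares of the 36 were above those of all genes, in a list chosen with earlier results known, and the difference was not tested.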

How the data were processed

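The deposited table holds whole-number counts per gene, not normalised by the authors, and FPKM values, per the file headers, for 6 libraries. GRCh38 was the genome build, and the tools named are edgeR, StringTie 1.3.4b, HISAT2 2.1.0 and CASAVA 1.8, per the submitters' processing notes. Not given in the sources used here are the read counter, strand and annotation release. Levels between genes were compared only in FPKM.

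The test on counts was that of edgeR 4.0.16 in R 4.3.3, with TMM scaling, filterByExpr, robust quasi-likelihood F test of fenbendazole over DMSO, Benjamini-Hochberg adjustment over all 17363 genes tested. Standard errors came from the F statistic and intervals are 95%. The fit was tested on simulated counts. Replicate pairs differed by more than sampling noise (lowest ratio of chi-square to its degrees of freedom 5.34), so none was merged. 3 counts correspond to 0.136 to 0.228 CPM per library. Alternatives used DESeq2 1.42.0, limma 3.58.1 (voom, and log2 of FPKM plus 1 or 0.1 where 3 libraries reached an FPKM of 1), other scalings and filters, and offsets from splines (5 degrees of freedom) of GC content and length of the longest GENCODE v29 transcript, known for 97.8% of tested genes. Windows around gene starts are RefSeq's (GRCh38.p14). Figures were drawn with matplotlib 3.10.9.

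The members, classes and lists were chosen with earlier results of these data known. Values per library are given for members past the threshold with all libraries or without DMSO 11, for the 2 members of each class with the smallest p. MCL1, CASP8 and CFLAR were added to these after their values were seen, and other members are given by estimate or interval. Of the 46 other pathway genes, those past the threshold are named.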

Additional observations from a re-analysis of the deposited data

How the results depend on the processing

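No paired analysis was made, because the titles number fenbendazole libraries 7 to 9 and DMSO libraries 10 to 12 and state no pairing. Against 700 genes past the threshold (540 higher, 160 lower) with 1 member higher and 2 lower, DESeq2 gave 1697 genes (998 and 699) with 5 and 4 members, and the offsets for GC content and length 3589 (2162 and 1427) with 7 and 5. An adjusted p of 0.01 gave 210 genes (193 and 17), a test against a 1.5-fold change 214 (200 and 14), each with 0 members higher and 0 lower. The offsets with DMSO 11 left out, added after seeing the data, gave 4422 genes (2627 and 1795) with 8 and 5 members. Without 1 library the counts ran from 147 to 3946 genes, 139 to 2313 higher and 8 to 1633 lower, with 0 to 8 members higher and 0 to 5 lower; the highest value of each was that without DMSO 11. Without DMSO 10 and without each treated library, 0 members were called, and without DMSO 12, 2 were higher and 1 was lower. These fits hold fewer libraries, as does the fit without DMSO 11, and the part of library number was not tested. Members called higher numbered 0 with upper-quartile scaling, 2 with no filter and with limma-voom, and 3 when every library of a group had to reach 1 CPM. With log2(FPKM + 1) and log2(FPKM + 0.1), FAS was called higher and CYCS was not, and with the smaller pseudocount 1 member, CASP10, was called lower. The cause of these differences between settings was not tested.

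Over 18 other settings CASP10 was called in 12, BMF in 10 and CYCS in 9. Their log2 fold changes ran from -1.44 to -0.92, from -1.65 to -0.81 and from 0.88 to 1.31, and 0 turned direction. Of the 36 members not called, 11 were called in at least 1 setting, and 18 changed the sign of their estimate in at least 1 setting, in each case without a call there. With 3 libraries a group, one of which stood apart, a missed threshold does not show that a gene was unchanged.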

Other observations

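Ligands of the death receptors were not among the 40 genes, and those given here were chosen after their values were seen. TNFSF10, which encodes TRAIL, had 16.02, 17.2 and 13.1 CPM in fenbendazole 7, 8 and 9, against 33.8, 18.4 and 35.3 CPM in DMSO 10, 11 and 12. DMSO 10 and 12 were at about the same level, and DMSO 11 lay next to the treated libraries. The log2 fold change was -0.92 (adjusted p = 0.118 in edgeR's test) and -1.16 without DMSO 11 (adjusted p = 3.58e-05). TNF had 1.66, 2.24 and 3.47 CPM in fenbendazole 7, 8 and 9, against 0.446, 0.921 and 0.521 CPM in DMSO 10, 11 and 12, a low level at which all treated libraries were above the controls (1.93, adjusted p = 0.0634, and 2.35, adjusted p = 0.00462, without DMSO 11). TNFRSF10D, a TRAIL receptor that lacks a working death domain, had 66.7, 75.7 and 70.4 CPM in fenbendazole 7, 8 and 9, against 51.9, 50.4 and 48.9 CPM in DMSO 10, 11 and 12, also with groups that did not overlap (0.49, adjusted p = 0.0767, and 0.50, adjusted p = 0.00151, without DMSO 11). FASLG, which encodes FAS ligand, had 0 counts in every library, which allows a level of up to 0.136 to 0.228 CPM per library by counting error alone.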
